A study of Mus musculus with 2 samples.

Results

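Rab GTPases are small GTP-binding proteins that switch between an active form on a membrane and an inactive form held in the cytosol. Each member marks a particular compartment and recruits the motors, tethers and fusion factors that move vesicles to or from it. In fat cells they are best known for carrying the glucose transporter GLUT4 to the surface after insulin, and some sit on lipid droplets. Rab genes were taken as every row whose symbol is Rab followed by a number and at most a letter a to d and another digit, which gave 59 of 23282 rows. Rab effectors such as the Rab11fip genes and the Rab-like Rabl genes fall outside this rule.

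The study, whose title concerns bone loss with age when PINK1 is lacking, compared 3T3-L1 cells under a Pink1 siRNA (sipink1) with the same line under a control siRNA (sicontrol), with 1 library each. Cells of this 1 mouse line grow as fibroblasts and can become adipocytes, and the labels call both samples murine adipocytes. No other gene or agent is named for either group, and the stage of differentiation and the time after the siRNA were not stated. Pink1 encodes a kinase of the mitochondrial surface that starts mitophagy, the removal of damaged mitochondria. In human cells, PINK1 activity is known to lead to phosphorylation of Rab8A, Rab8B and Rab13. Another kinase, LRRK2, phosphorylates several Rabs directly and has Rab29 as a partner. The labels name a Lexogen Quant-Seq kit, a name used for kits that read the 3′ ends of transcripts, and the count tables do not show where in a transcript the reads lie.

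The Pink1 siRNA library held 14214768 counts and the control siRNA library 13803174. Each value is a single measurement, so differences between the libraries could not be tested, and intervals cover counting error only. Pink1 itself had 351 counts in the Pink1 siRNA library and 511 in the control siRNA library, a ratio of 0.687 (95% counting interval 0.598 to 0.788). A wider interval that also allows for differences between the libraries beyond counting, described with the Rab ratios, was 0.445 to 1.05 and included 1. Adipocyte markers were present, with Adipoq at 4309 counts in the Pink1 siRNA library and 4337 in the control siRNA library, but the GLUT4 gene Slc2a4 had 25 counts in the Pink1 siRNA library and 49 in the control siRNA library and Lep had 0 in both. The 10 adipocyte markers summed to 2729 CPM in the Pink1 siRNA library and 2543 CPM in the control siRNA library (counts scaled to a common library size), with ratios above 1 for 4 of them, Fabp4 and Cidec among these, and below 1 for Plin1 (0.607), Slc2a4, Cebpa, Adipoq and Lpl. The 7 preadipocyte or fibroblast markers summed to 20812 CPM in the Pink1 siRNA library and 18605 CPM in the control siRNA library, all 7 with ratios above 1. Endothelial, immune, epithelial and muscle markers summed to at most 7.07 CPM per list in either library. In bulk RNA, a different number of cells of a type and a different amount of RNA per cell cannot be told apart. Whether the preadipocyte transcripts have a part in any Rab ratio was not tested.

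As a family, the Rab genes took nearly the same share of transcripts in both libraries. Together they held 43211 counts in the Pink1 siRNA library, 0.304% of the total (exact 95% interval 0.301 to 0.307), and 43111 counts in the control siRNA library, 0.312% (0.309 to 0.315). Of the 59 members, 43 were measured, meaning at least 40 counts over both libraries. Another 7 had between 2 and 19 counts over both, and 9 had none.

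Rab14 and Rab10, which both serve GLUT4 vesicles in adipocytes, were the most abundant members. Together they held 27.0% of all Rab counts in the Pink1 siRNA library and 27.1% in the control siRNA library. They ranked 1 and 2 in CPM and also in CPM per kb of transcript, where they averaged 100 and 94.8 over both libraries. Only 12 measured members averaged at least 100 CPM. Rab29 was the lowest of the 43 in CPM, at a mean of 3.57, and Rab30 the lowest per length, at a mean of 1.04 CPM per kb. The kit name and its catalogue number in the labels may point to different kits, so whether 3′ ends or whole transcripts were read is not settled. If 3′ ends were read, division by length has no meaning and the CPM order applies.

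**Figure D1:**
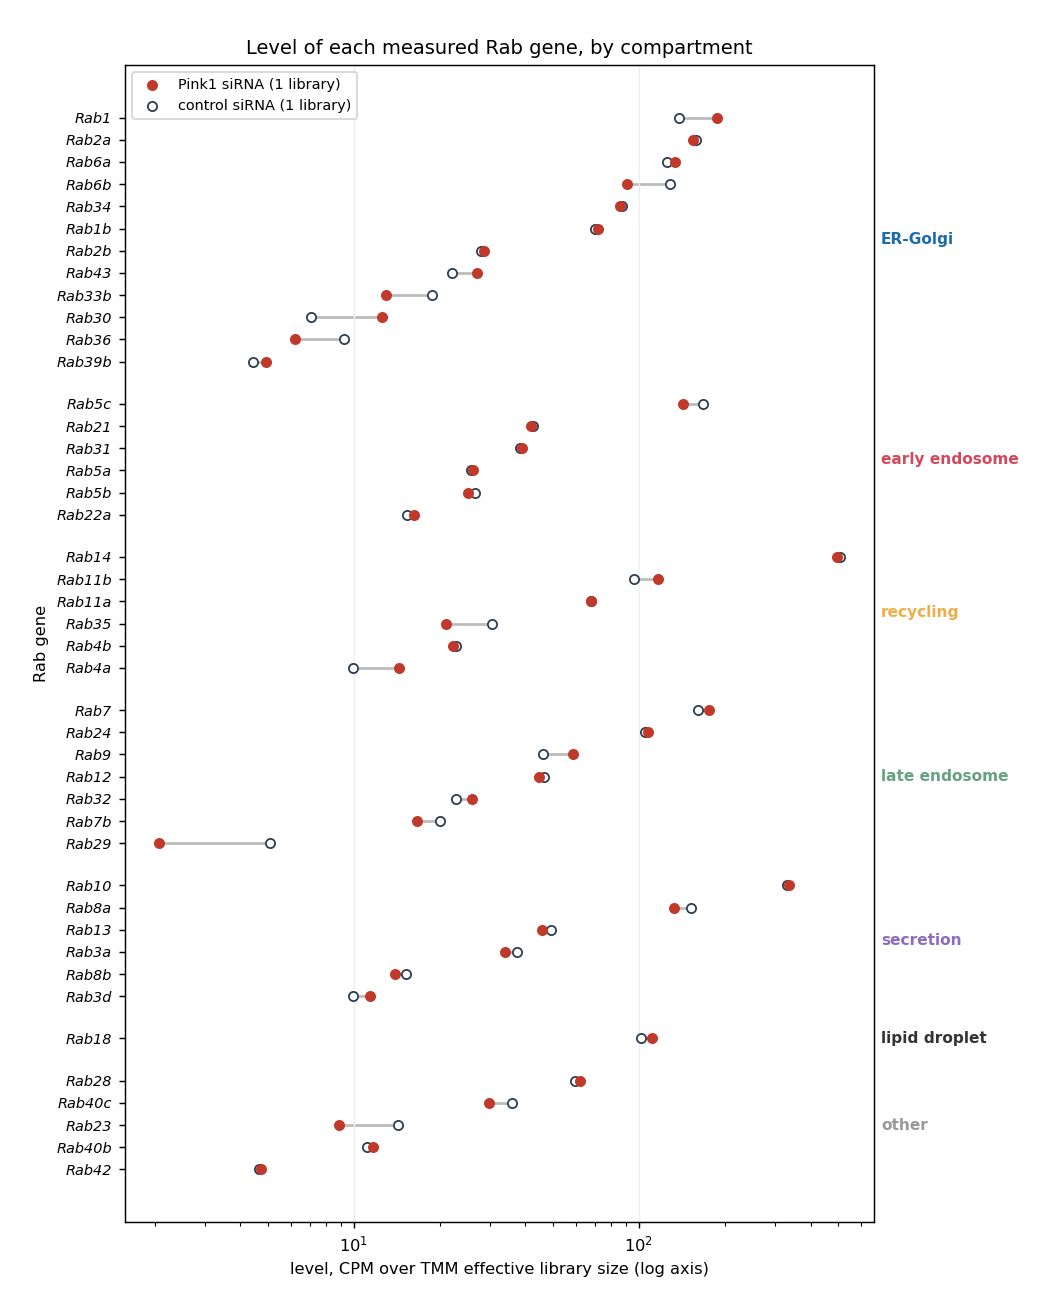
Level of each of the 43 measured Rab genes in CPM (log axis), grouped by the compartment served and ordered by mean level within each group. Filled red points are the Pink1 siRNA library and open points the control siRNA library, 1 library each. Most pairs of points nearly coincide, as for Rab14 (497 CPM in the Pink1 siRNA library and 506 CPM in the control siRNA library), while the pairs of Rab29, Rab30, Rab23, Rab36, Rab33b, Rab35, Rab4a and Rab6b are the 8 furthest apart.

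Ratios of Pink1 siRNA over control siRNA were centred on 1. The median log2 ratio of the 43 measured members was 0.02 (-0.02 under total-count scaling), beside 0.00 over all 11660 measured rows (-0.04 under total-count scaling). Of the 43 ratios, 23 were above 1, and 51.1% of all measured rows were. As the rule of size, a gene had to differ at least 2-fold with a counting interval that left out 1. By that rule 0 Rab genes were higher, against 1.69% of all measured rows, and 1, Rab29, was lower, against 2.39%. In either direction this is 2.33% of the measured members against 4.08% of all measured rows. At 1.5-fold, Rab30 was higher (background 5.48%) and Rab29 and Rab23 were lower (background 6.64%), in all 6.98% of the members against 12.1% of all measured rows. Small differences prevailed, with 30 of the 43 (69.8%) within 1.2-fold, against 58.3% of all measured rows. These shares are descriptions, and the share of rows past a fold depends on their level.

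The counting interval left out 1 for 19 members (44.2%), against 51.2% of all measured rows. The interval lay above 1 for 9 (background 26.2%) and below 1 for 10 (background 24.9%). Because the libraries differed by more than counting error, a widened interval was also computed, which divides both counts by the mean excess of the squared difference over its binomial variance among measured rows of similar level. That factor was between 5.58 for Rab29 and 128 for Rab14 and Rab10. The widened interval was above 1 for 0 members (background 2.09%) and below 1 for Rab6b alone (background 2.01%), or 2.33% of the members against 4.1% of all measured rows. With the widened interval no member passed 2-fold or 1.5-fold, against 1.11% and 2.99% of all measured rows.

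**Figure D2:**
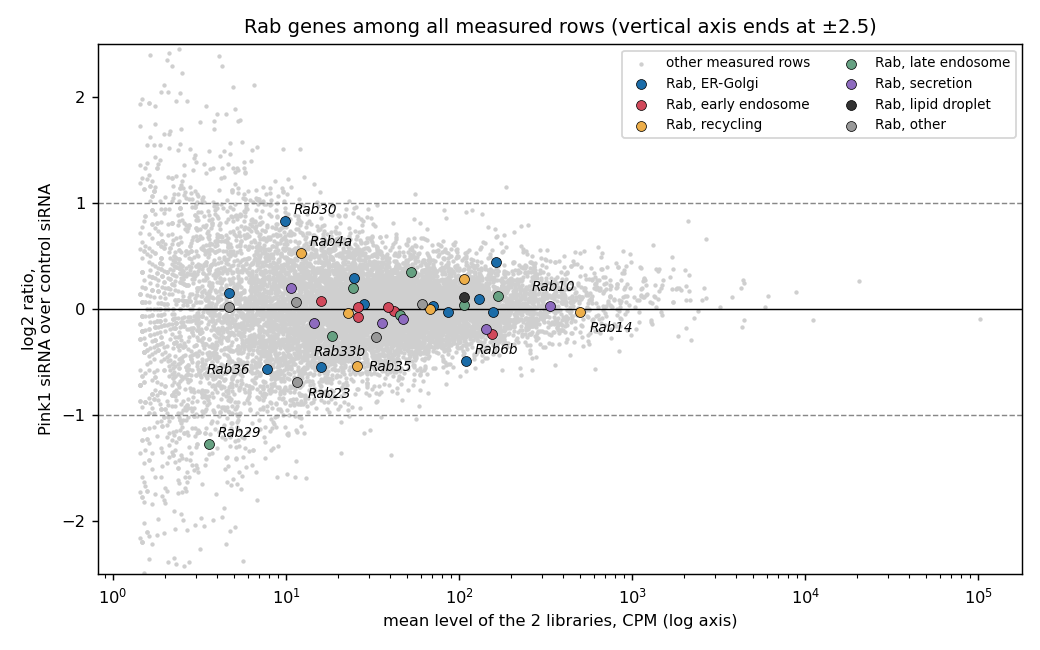
Log2 ratio of Pink1 siRNA over control siRNA against the mean level of the 2 libraries in CPM (log axis), with Rab genes coloured by compartment and the other measured rows in grey; 26 rows lie beyond the vertical limits of 2.5. Dashed lines mark a 2-fold difference, and Rab29 (log2 ratio -1.28) is the 1 Rab gene outside them, at a low level where many grey points are as far from 0.

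Rab29, a Rab of the trans-Golgi network and lysosomes, was the member furthest from 1. It had 29 counts in the Pink1 siRNA library and 71 in the control siRNA library, or 2.07 CPM in the Pink1 siRNA library and 5.07 CPM in the control siRNA library, a ratio of 0.408 (0.256 to 0.637) or 2.45-fold lower. Its widened interval of 0.117 to 1.21 included 1. Lrrk2, the kinase gene whose product binds Rab29, was on the other side of 1 with 230 counts in the Pink1 siRNA library and 134 in the control siRNA library, a ratio of 1.72 (1.38 to 2.14, widened 0.988 to 3.05). Rab29 lies on mouse chromosome 1 from 131867210 to 131872887 (mm10), and its transcript shares no 50-base stretch with another annotated gene in its last 500 bases.

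Rab23, which restrains Hedgehog signalling and acts at the cilium, was the other member more than 1.5-fold lower. It had 124 counts in the Pink1 siRNA library and 200 in the control siRNA library, a ratio of 0.620 (0.492 to 0.780, widened 0.316 to 1.18). The higher member was Rab30, which helps keep the Golgi in order, with 176 counts in the Pink1 siRNA library and 99 in the control siRNA library, a ratio of 1.78 (1.38 to 2.30, widened 0.903 to 3.64). Rab23 lies on chromosome 1 from 33719896 to 33742564, and Rab30 on chromosome 7 from 92741637 to 92844535. All 3 of these genes averaged under 12 CPM, so their ratios rest on few reads.

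**Figure D3:**
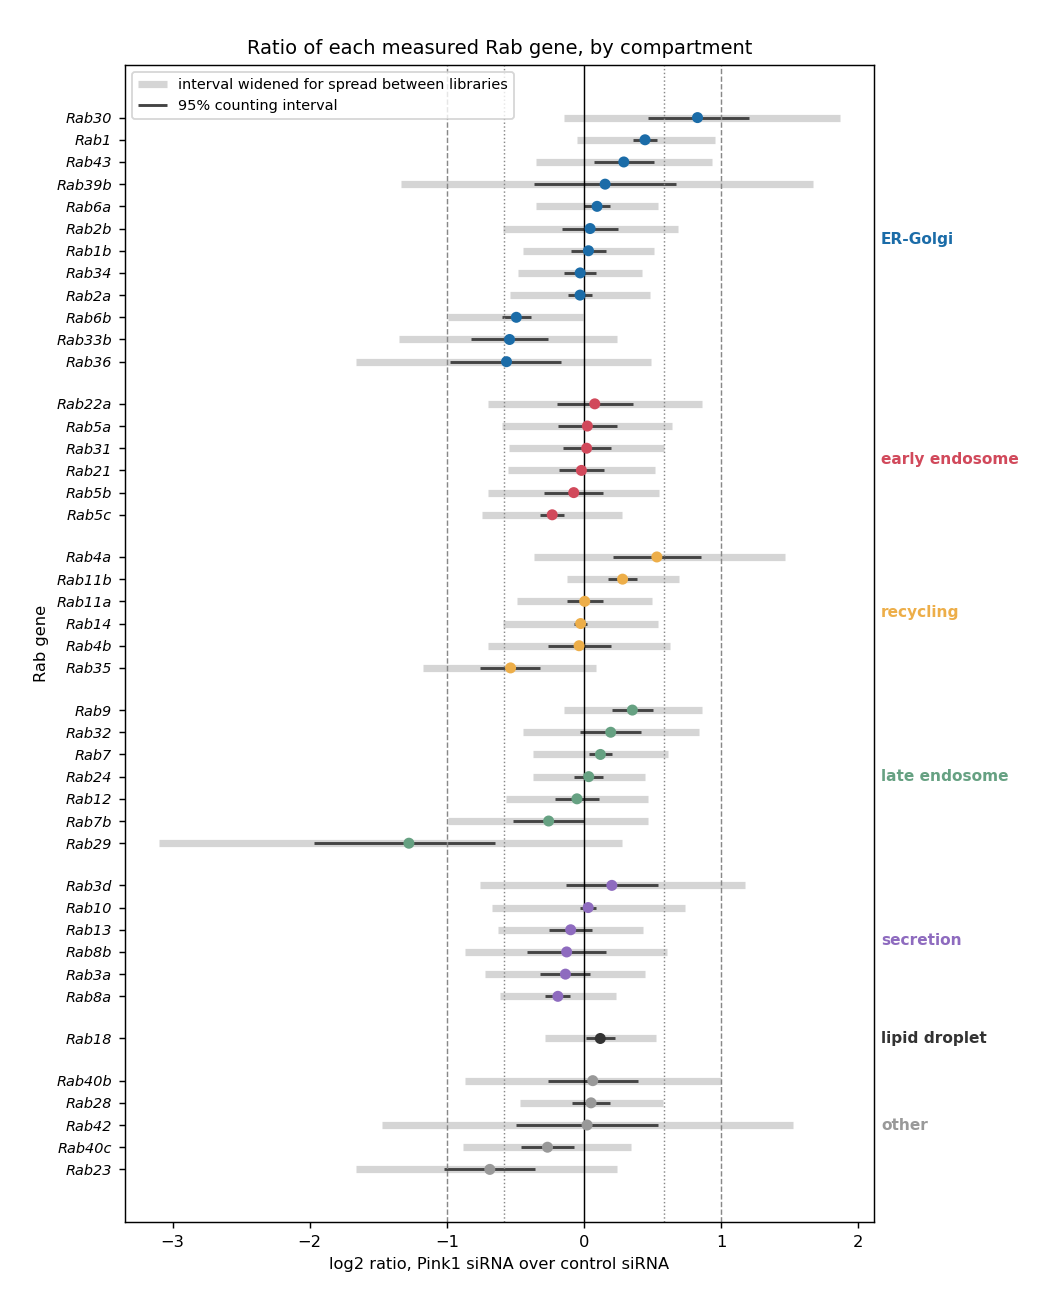
Log2 ratio of Pink1 siRNA over control siRNA for each of the 43 measured Rab genes, grouped by compartment, with the 95% counting interval as a thin dark line and the interval widened for the spread between libraries as a broad grey line. Dotted lines mark 1.5-fold and dashed lines 2-fold differences. The widened interval reaches 0 for all members but Rab6b, and Rab30 (0.83) and Rab29 (-1.28) are the highest and lowest points.

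Reference sequence around the start of transcription is shown for Rab29 and Rab23, the lower members past 1.5-fold, and for Rab6a and Rab6b, paralogs described next whose ratios lay on opposite sides of 1. Each run is 300 bases from RefSeq (GRCm38.p6), from 250 bases before to 50 after a listed start, 5′ to 3′ on the plus strand, which is the strand of all 4 genes. Capitals mark, on either strand, the E-box CACGTG, the cAMP response element TGACGTCA, the CCAAT box, the GC box GGGCGG or the TATA box TATAAA. The windows lie at chr1:131867027-131867326 for Rab29, chr1:33719646-33719945 for Rab23, chr7:100607336-100607635 for Rab6a and chr9:103111824-103112123 for Rab6b. Rab23 has another listed start, and the window shown is the one with the E-box. The Rab6b window lies wholly inside the annotated gene, which begins at 103111667, while the other windows begin before their genes.
Rab29: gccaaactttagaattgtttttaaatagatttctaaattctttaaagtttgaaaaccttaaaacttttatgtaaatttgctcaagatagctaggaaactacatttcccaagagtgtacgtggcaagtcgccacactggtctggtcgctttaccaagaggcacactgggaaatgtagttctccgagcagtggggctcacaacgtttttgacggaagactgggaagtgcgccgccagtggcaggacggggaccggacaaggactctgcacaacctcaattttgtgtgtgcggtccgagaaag
Rab23: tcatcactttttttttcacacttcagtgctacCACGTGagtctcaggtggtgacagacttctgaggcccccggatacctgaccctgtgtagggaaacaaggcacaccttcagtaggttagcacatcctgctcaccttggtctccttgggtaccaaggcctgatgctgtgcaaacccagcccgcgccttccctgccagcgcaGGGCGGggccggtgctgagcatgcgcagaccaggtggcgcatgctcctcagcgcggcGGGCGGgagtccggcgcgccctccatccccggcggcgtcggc
Rab6a: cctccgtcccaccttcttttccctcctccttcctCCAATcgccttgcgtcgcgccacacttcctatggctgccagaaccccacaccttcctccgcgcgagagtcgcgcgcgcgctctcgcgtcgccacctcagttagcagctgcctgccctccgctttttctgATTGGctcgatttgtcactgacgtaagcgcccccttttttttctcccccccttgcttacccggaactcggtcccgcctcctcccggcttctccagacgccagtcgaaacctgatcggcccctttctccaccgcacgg
Rab6b: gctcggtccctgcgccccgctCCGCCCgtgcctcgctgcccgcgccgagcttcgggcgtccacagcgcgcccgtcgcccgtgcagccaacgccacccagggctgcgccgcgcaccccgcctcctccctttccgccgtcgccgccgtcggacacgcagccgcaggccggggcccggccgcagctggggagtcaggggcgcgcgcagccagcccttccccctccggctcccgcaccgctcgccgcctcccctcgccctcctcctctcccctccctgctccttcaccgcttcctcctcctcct

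The Rab29 window held none of these motifs and was 45.3% G and C bases. The Rab23 window held 1 E-box and 2 GC boxes, the Rab6a window 2 CCAAT boxes and the Rab6b window 1 GC box. G and C bases made up 78.7% of the Rab6b window and 62.7% of the Rab6a window. Over the 45 promoters listed for 37 of the measured members the median was 63.3%, against 52.7% over all 32851 listed promoters. The GC box was in 33 of the 45 (73.3%, against 35.7% of all promoters), the CCAAT box in 22 (48.9%, against 37.4%) and the TATA box in 3 (6.67%, against 13.6%). The E-box was in 4 (8.89%, against 7.15%) and the cAMP response element in 1 (2.22%, against 1.79%). No motif is contained in another, and a match describes letters, not binding. All listed promoters include those of genes that were not measured here. Whether the shares differ from those of measured genes at large was not tested.

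In the ER-Golgi group, whose Rabs carry cargo out of the endoplasmic reticulum and keep the Golgi stacks in order, ratios lay on both sides of 1. Of 15 members 12 were measured, with a median log2 ratio of 0.04 (0.00 under total-count scaling) and 7 ratios above 1. Rab1, needed for transport from the endoplasmic reticulum to the Golgi, had 2641 counts in the Pink1 siRNA library and 1941 in the control siRNA library, or 189 CPM in the Pink1 siRNA library and 139 CPM in the control siRNA library, a ratio of 1.36 (1.28 to 1.44, widened 0.963 to 1.93). Its close relative Rab1b had 1006 counts in the Pink1 siRNA library and 984 in the control siRNA library, a ratio of 1.02 (0.935 to 1.12). The counting intervals of the pair do not overlap, while the widened intervals do (0.733 to 1.43 for Rab1b). Rab43, a Rab of Golgi structure, was also on the high side at 379 counts in the Pink1 siRNA library and 310 in the control siRNA library, a ratio of 1.22 (1.05 to 1.43, widened 0.786 to 1.91). Nearly all of the Rab43 transcript end is shared with a gene model on the same strand that has no row of its own, so its count is uncertain.

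Rab6b, a Golgi Rab best known from neurons, was lower, while its paralog Rab6a, which runs retrograde and exit traffic at the Golgi, was not. Rab6b had 1275 counts in the Pink1 siRNA library and 1796 in the control siRNA library, or 91.0 CPM in the Pink1 siRNA library and 128 CPM in the control siRNA library, a ratio of 0.710 (0.660 to 0.763) with a widened interval of 0.504 to 0.995. Rab6a had 1876 counts in the Pink1 siRNA library and 1757 in the control siRNA library. That was 134 CPM in the Pink1 siRNA library and 125 CPM in the control siRNA library, a ratio of 1.07 (widened 0.786 to 1.45). Its counting interval bordered 1, and included it under total-count scaling (0.971 to 1.11) and DESeq2 scaling. The counting intervals of Rab6a and Rab6b do not overlap, while the widened intervals do. Exons of Rab6a overlap those of Mrpl48 on the other strand over 708 bases, so the Rab6a count is uncertain. Mrpl48 had 71 counts in the Pink1 siRNA library and 120 in the control siRNA library. Rab6b lies on chromosome 9 from 103111667 to 103185276 and Rab6a on chromosome 7 from 100607575 to 100641268.

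Rab33b and Rab36 were lower too, without passing 1.5-fold. Rab33b, a Golgi Rab that binds the autophagy factor Atg16l1, had 181 counts in the Pink1 siRNA library and 264 in the control siRNA library, a ratio of 0.686 (0.564 to 0.832, widened 0.392 to 1.18). Rab36, which acts at the Golgi and on the position of late endosomes, had 87 counts in the Pink1 siRNA library and 129 in the control siRNA library, a ratio of 0.674 (0.508 to 0.892, widened 0.315 to 1.40). Both passed 1.5-fold under total-count scaling. The other 4 measured members had counting intervals that included 1. Rab2a, of traffic from the Golgi back to the endoplasmic reticulum, had 2169 counts in the Pink1 siRNA library and 2214 in the control siRNA library (ratio 0.980), and Rab2b, of Golgi structure, 402 counts in the Pink1 siRNA library and 390 in the control siRNA library (1.03). Rab34, a Golgi Rab that also acts in making cilia, had 1199 counts in the Pink1 siRNA library and 1223 in the control siRNA library (0.980), and Rab39b, known from neurons, 69 counts in the Pink1 siRNA library and 62 in the control siRNA library (1.11). Rab33a had 4 counts in the Pink1 siRNA library and 10 in the control siRNA library, and Rab19 and Rab39 had none.

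Early endosome Rabs, which drive fusion of incoming vesicles, showed small differences. Of 7 members 6 were measured, all within 1.2-fold, with a median log2 ratio of 0.00 (-0.04 under total-count scaling). Rab5c had 2007 counts in the Pink1 siRNA library and 2358 in the control siRNA library, or 143 CPM in the Pink1 siRNA library and 168 CPM in the control siRNA library, a ratio of 0.851 (0.802 to 0.904, widened 0.596 to 1.21). Rab5a had 366 counts in the Pink1 siRNA library and 360 in the control siRNA library, a ratio of 1.02 (0.877 to 1.18), and Rab5b 353 counts in the Pink1 siRNA library and 372 in the control siRNA library, a ratio of 0.949 (0.818 to 1.10). These 3 genes drive the same fusion step, and Rab5c, with most of the counts, set their summed ratio of 0.882 (0.838 to 0.929). Rab21, which sorts integrins, had 588 counts in the Pink1 siRNA library and 596 in the control siRNA library (ratio 0.987). Rab31, of traffic between the trans-Golgi and endosomes, had 545 counts in the Pink1 siRNA library and 538 in the control siRNA library (1.01), and Rab22a, of endosomes and recycling tubules, 228 counts in the Pink1 siRNA library and 216 in the control siRNA library (1.06). Their counting intervals all included 1, and Rab20 had no counts.

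Recycling Rabs return internalised cargo to the surface, and their ratios also lay on both sides of 1. Of 9 members 6 were measured, with a median log2 ratio of -0.01. Rab14 had 6960 counts in the Pink1 siRNA library and 7083 in the control siRNA library, a ratio of 0.983 (0.951 to 1.02), and 0.954 (0.923 to 0.986) under total-count scaling. The fast-recycling gene Rab4a was on the high side at 201 counts in the Pink1 siRNA library and 139 in the control siRNA library, a ratio of 1.45 (1.16 to 1.81, widened 0.775 to 2.75). Its paralog Rab4b had 313 counts in the Pink1 siRNA library and 321 in the control siRNA library, a ratio of 0.975 (0.832 to 1.14), but its transcript end is almost wholly shared with a gene model on the same strand, so its count is uncertain. Slow recycling runs through Rab11. Rab11b had 1635 counts in the Pink1 siRNA library and 1346 in the control siRNA library, a ratio of 1.21 (1.13 to 1.31, widened 0.916 to 1.61), and Rab11a 954 counts in the Pink1 siRNA library and 951 in the control siRNA library, a ratio within 1% of 1 (0.916 to 1.10). Rab35, which recycles cargo quickly and helps cells divide, was the lowest of the 6 at 295 counts in the Pink1 siRNA library and 428 in the control siRNA library, a ratio of 0.689 (0.592 to 0.801, widened 0.442 to 1.06). Rab15 had 0 counts in the Pink1 siRNA library and 6 in the control siRNA library, where a 0 is compatible with up to 3 counts or 0.214 CPM. Rab25 had 2 counts in the Pink1 siRNA library and 0 in the control siRNA library, and Rab17 had none in either.

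Late endosome Rabs take cargo to lysosomes and autophagosomes, and Rab7 also acts in mitophagy. Of 9 members 7 were measured, Rab29 among them, with a median log2 ratio of 0.03 (-0.01 under total-count scaling). Rab7, the main late endosome Rab, had 2461 counts in the Pink1 siRNA library and 2266 in the control siRNA library, or 176 CPM in the Pink1 siRNA library and 162 CPM in the control siRNA library, a ratio of 1.09 (1.03 to 1.15) whose interval included 1 under total-count scaling (0.996 to 1.12). Rab7b, of traffic from endosomes to the Golgi, had 234 counts in the Pink1 siRNA library and 280 in the control siRNA library, a ratio of 0.836 (0.700 to 0.998). Rab9, which returns receptors from late endosomes to the trans-Golgi, had 822 counts in the Pink1 siRNA library and 644 in the control siRNA library, a ratio of 1.28 (1.15 to 1.42, widened 0.902 to 1.81). Rab9 was thus the highest of the group, as Rab29 was the lowest. Rab24, an autophagosome Rab, had 1509 counts in the Pink1 siRNA library and 1474 in the control siRNA library (ratio 1.02, 0.952 to 1.10), and its exons overlap those of Prelid1 on the other strand over 1258 bases, so its count is uncertain. Rab12, which sends recycling cargo to lysosomes, had 626 counts in the Pink1 siRNA library and 649 in the control siRNA library (ratio 0.965, 0.863 to 1.08). Rab32, of lysosome-related organelles and mitochondria, had 365 counts in the Pink1 siRNA library and 319 in the control siRNA library (ratio 1.14, 0.982 to 1.33). Rab9b and Rab38 had no counts.

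Secretion Rabs deliver vesicles to the plasma membrane. Of 13 members 6 were measured, all within 1.2-fold, with a median log2 ratio of -0.11 and 4 ratios below 1. Rab10, the Rab through which insulin brings GLUT4 to the adipocyte surface, had 4714 counts in the Pink1 siRNA library and 4618 in the control siRNA library, or 337 CPM in the Pink1 siRNA library and 330 CPM in the control siRNA library, a ratio of 1.02 (0.980 to 1.06). Rab8a had 1863 counts in the Pink1 siRNA library and 2127 in the control siRNA library, or 133 CPM in the Pink1 siRNA library and 152 CPM in the control siRNA library, a ratio of 0.876 (0.823 to 0.933, widened 0.653 to 1.17). Rab8b had 195 counts in the Pink1 siRNA library and 213 in the control siRNA library, a ratio of 0.916 (0.750 to 1.12), and Rab13 641 counts in the Pink1 siRNA library and 686 in the control siRNA library, a ratio of 0.934 (0.838 to 1.04). Rab8a, Rab8b and Rab13, the members whose phosphorylation depends on PINK1 in human cells, were all slightly on the low side of 1. So were 5703 of all 11660 measured rows, and Rab3a in the same group. The counting intervals of Rab8b and Rab13 included 1, as did the widened intervals of all 3. RNA counts do not measure phosphorylation. Among the Rabs of regulated exocytosis, Rab3a had 475 counts in the Pink1 siRNA library and 522 in the control siRNA library (ratio 0.910, 0.802 to 1.03) and Rab3d 160 counts in the Pink1 siRNA library and 139 in the control siRNA library (1.15, 0.911 to 1.46). Rab27a, Rab27b and Rab37, known from secretory granules, had at most 10 counts in either library. Rab3c had 1 count in each, and Rab3b, Rab26 and Rab44 had none.

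Rab18, which coats lipid droplets and the adjoining endoplasmic reticulum, had 1552 counts in the Pink1 siRNA library and 1430 in the control siRNA library, or 111 CPM in the Pink1 siRNA library and 102 CPM in the control siRNA library. Its ratio was 1.09 (counting interval above 1, widened 0.819 to 1.44), and the counting interval included 1 under total-count scaling (0.980 to 1.13). Rab7, Rab8a, Rab32 and Rab40c have also been described on lipid droplets, and with Rab18 these 5 had ratios between 0.831 and 1.14, 3 of them above 1. Rab40c, a member with a SOCS box that recruits a ubiquitin ligase, was the lowest of the 5 at 418 counts in the Pink1 siRNA library and 503 in the control siRNA library (0.831, 0.728 to 0.948, widened 0.543 to 1.27). Its paralog Rab40b had 163 counts in the Pink1 siRNA library and 156 in the control siRNA library (ratio 1.04, 0.834 to 1.31). Of the members assigned to no transport route, Rab28, a Rab of the cilium, had 869 counts in the Pink1 siRNA library and 839 in the control siRNA library (1.04, 0.941 to 1.14), and Rab42 66 counts in the Pink1 siRNA library and 65 in the control siRNA library (1.02, 0.710 to 1.45).

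The division of Rab transcripts among routes was nearly the same in the 2 libraries. ER-Golgi Rabs took 26.5% of Rab counts in the Pink1 siRNA library and 25.9% in the control siRNA library, recycling Rabs 24.0% in the Pink1 siRNA library and 23.8% in the control siRNA library and secretion Rabs 18.7% in the Pink1 siRNA library and 19.3% in the control siRNA library. Late endosome Rabs took 14.0% in the Pink1 siRNA library (exact interval 13.7 to 14.3) and 13.2% in the control siRNA library (12.9 to 13.6). Early endosome Rabs took 9.46% in the Pink1 siRNA library and 10.3% in the control siRNA library, with intervals that do not overlap. These last 2 shifts exceeded counting error, and each was under 1 percentage point. Intervals of the other groups overlapped, which does not place their shifts within counting error. The summed ratio of secretion Rabs was 0.969 (0.939 to 0.999). Rab18 took 3.59% in the Pink1 siRNA library and 3.32% in the control siRNA library. Members assigned to no route took 3.80% in the Pink1 siRNA library and 4.09% in the control siRNA library. Spread between libraries beyond counting is not covered by these intervals.

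Paralogs of the same number often overlap in function, so their shares within each subfamily were compared. Of the 14 subfamilies with more than 1 row, Rab6 differed most among those with at least 2 measured members. Rab6a made up 59.5% of Rab6 counts in the Pink1 siRNA library (exact interval 57.8 to 61.3) and 49.5% in the control siRNA library (47.8 to 51.1), while the Rab6 sum was 225 CPM in the Pink1 siRNA library and 254 CPM in the control siRNA library, a ratio of 0.887 (0.845 to 0.931). Rab1 made up 72.4% of the Rab1 and Rab1b total in the Pink1 siRNA library (70.9 to 73.9) and 66.4% in the control siRNA library (64.6 to 68.1). Rab4b made up 60.9% of the Rab4 total in the Pink1 siRNA library (56.5 to 65.1) and 69.8% in the control siRNA library (65.4 to 73.9). Rab11b made up 63.2% of the Rab11 total in the Pink1 siRNA library (61.3 to 65.0) and 58.6% in the control siRNA library (56.6 to 60.6). Intervals of the 2 libraries did not overlap in these 4 subfamilies, but they cover counting error only, and no widened interval was computed for shares. They overlapped in Rab2, Rab3, Rab5, Rab7, Rab8 and Rab40, the other subfamilies with at least 2 measured members. By counting error alone, the ratio interval left out 1 for 51.2% of all measured rows. That figure is for ratios of single rows, and no background was computed for shares within gene subfamilies. In the Rab8 subfamily the intervals of the 2 libraries overlapped, with Rab8a at 90.5% in the Pink1 siRNA library and 90.9% in the control siRNA library. No paralogs with the same number share a 50-base stretch, and 38 of the 43 measured members share none with any other annotated gene in the last 500 bases. The other 5, whose counts are less certain, are Rab2b, Rab4b, Rab8a, Rab33b and Rab43.

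**Figure D4:**
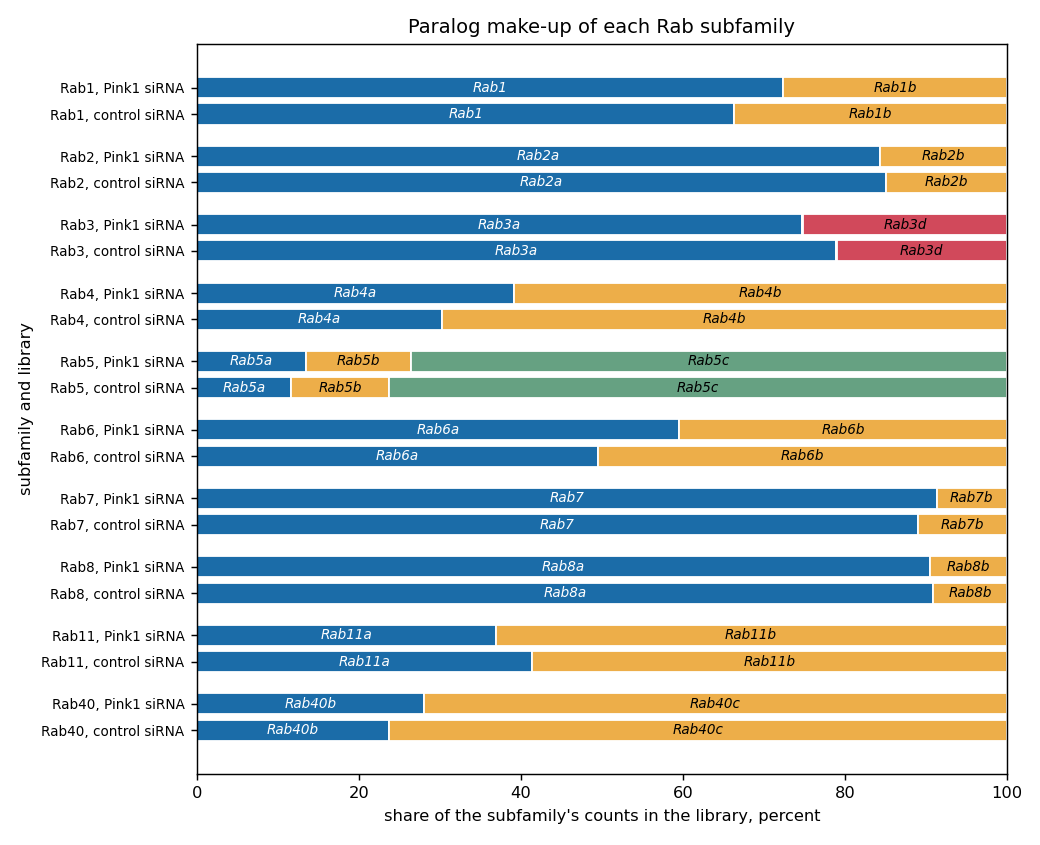
Share of each gene in the counts of its Rab subfamily, in percent, for 10 subfamilies with at least 2 measured members; for each subfamily the upper bar is the Pink1 siRNA library and the lower bar the control siRNA library. Rab6a takes 59.5% of Rab6 counts in the Pink1 siRNA library and 49.5% in the control siRNA library, while the Rab2 and Rab8 bars are nearly alike.

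Genes that run the Rab cycle were examined next, beginning with a list for prenylation, membrane insertion and the holding of Rabs in the cytosol. Of 12 such genes, all measured, 0 passed 2-fold (background 4.08%) and 2 were lower past 1.5-fold, 16.7% of the list against 12.1% of all measured rows in either direction, with a median log2 ratio of 0.05. Both encode enzymes that process prenylated C termini of proteins, and which Rabs are among their substrates was not examined. Rce1, a protease gene, had 167 counts in the Pink1 siRNA library and 277 in the control siRNA library (ratio 0.603, 0.495 to 0.733), and Icmt, a methyltransferase gene, 173 counts in the Pink1 siRNA library and 278 in the control siRNA library (0.622, 0.512 to 0.755). The Rab escort protein gene Chm had 616 counts in the Pink1 siRNA library and 760 in the control siRNA library (0.811, 0.728 to 0.903). The dissociation inhibitor gene Gdi2 had a ratio of 1.06 (1.02 to 1.11) and the Rab geranylgeranyl transferase gene Rabggta 0.982 (0.749 to 1.29). Widened intervals included 1 for all 5.

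Exchange factors, which activate Rabs, numbered 43 measured of 46, with a median log2 ratio of -0.06. None passed 2-fold (background 4.08%), and 2 were higher and 3 lower past 1.5-fold, 11.6% against 12.1% of all measured rows. Madd, which activates Rab3 and Rab27, had 132 counts in the Pink1 siRNA library and 79 in the control siRNA library (ratio 1.67, 1.26 to 2.24). The Rab7 activators Mon1a and Mon1b differed in direction, Mon1b with 242 counts in the Pink1 siRNA library and 158 in the control siRNA library (1.53, 1.25 to 1.88) and Mon1a with 62 counts in the Pink1 siRNA library and 102 in the control siRNA library (0.608, 0.436 to 0.842). Dennd4c, which activates Rab10, had 111 counts in the Pink1 siRNA library and 184 in the control siRNA library (0.603, 0.472 to 0.768), and its relative Dennd4b 46 counts in the Pink1 siRNA library and 79 in the control siRNA library (0.582, 0.396 to 0.848). Rabgef1, a Rab5 activator, had 185 counts in the Pink1 siRNA library and 255 in the control siRNA library (0.726, 0.597 to 0.880). Widened intervals included 1 for all 6.

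GTPase-activating proteins, which switch Rabs off, had 34 of 40 measured, a median log2 ratio of -0.09, and 3 higher and 2 lower members past 1.5-fold, 14.7% against 12.1% of all measured rows. Tbc1d19 had 499 counts in the Pink1 siRNA library and 321 in the control siRNA library (ratio 1.55, 1.35 to 1.79), with a widened interval just above 1 that reached 2.44. Sgsm3 had 344 counts in the Pink1 siRNA library and 216 in the control siRNA library (1.59, 1.34 to 1.90), and Usp6nl, which acts on Rab5, 105 counts in the Pink1 siRNA library and 65 in the control siRNA library (1.62, 1.17 to 2.24). Lower were Tbc1d20, which acts on Rab1, at 130 counts in the Pink1 siRNA library and 214 in the control siRNA library (0.608, 0.485 to 0.759), and Tbc1d25, which acts on Rab33b, at 132 counts in the Pink1 siRNA library and 199 in the control siRNA library (0.663, 0.528 to 0.831). The direction thus differed from gene to gene. Tbc1d15, which acts on Rab7 at mitochondria, had 538 counts in the Pink1 siRNA library and 703 in the control siRNA library (0.765, 0.683 to 0.858), and Tbc1d4, the insulin-regulated brake on Rab10, 439 counts in the Pink1 siRNA library and 506 in the control siRNA library (0.868, 0.762 to 0.988). Apart from Tbc1d19, the widened intervals of these 7 genes included 1.

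Rab effectors, 47 measured of 65 listed, had a median log2 ratio of -0.07, with 1 higher and 2 lower past 1.5-fold, 6.38% against 12.1% of all measured rows. The exocyst subunit gene Exoc6 had 59 counts in the Pink1 siRNA library and 31 in the control siRNA library (ratio 1.90, 1.21 to 3.04, widened 0.623 to 6.59). Mical3, a Rab8 effector, had 443 counts in the Pink1 siRNA library and 671 in the control siRNA library (0.660, 0.584 to 0.746), with a widened interval of 0.444 to 0.974 that lay below 1. The Rab13 effector gene Micall2 had 145 counts in the Pink1 siRNA library and 233 in the control siRNA library (0.622, 0.502 to 0.769, widened 0.357 to 1.07). Of these 3 effectors, only Mical3 had a widened interval that left out 1. The Rab5 tether gene Eea1 had a ratio of 0.936 (0.889 to 0.986) and Rab11fip5 0.949 (0.787 to 1.14). Rilp, a Rab7 effector, had 20 counts in the Pink1 siRNA library and 6 in the control siRNA library, too few to be measured.

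Of 7 kinase and phosphatase genes linked to Rab phosphorylation 5 were measured, Pink1 itself among them, with a median log2 ratio of -0.14. Lrrk2 was the 1 past 1.5-fold, 20% of the 5 against 12.1% of all measured rows. The phosphatase gene Ppm1h had 5 counts in the Pink1 siRNA library and 1 in the control siRNA library. Over 13 GLUT4 vesicle cargo and fusion genes the median log2 ratio was 0.02 (-0.02 under total-count scaling), with 1 gene past 1.5-fold in each direction, 15.4% against 12.1% of all measured rows. The fusion gene Vamp2 had 627 counts in the Pink1 siRNA library and 418 in the control siRNA library, 1.5-fold higher (1.32 to 1.70), with a widened interval just above 1 that reached 2.25. Slc2a4, with the counts given above, had a ratio of 0.510 (0.302 to 0.842, widened 0.124 to 1.77).

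Other small GTPase families served as a comparison. Median log2 ratios were 0.00 for 21 measured Arf family genes and 0.08 for 16 Ras family genes, beside 0.02 for the Rab genes. In the Arf family, 9.52% of the measured genes passed 1.5-fold, against 12.1% of all measured rows. Arl6 was higher at 214 counts in the Pink1 siRNA library and 141 in the control siRNA library (ratio 1.52, widened 0.873 to 2.69). Arl5b was lower at 230 counts in the Pink1 siRNA library and 385 in the control siRNA library (0.597). Its widened interval of 0.364 to 0.964 left out 1. The Ras family had 0 genes past 1.5-fold, against the same 12.1%, with Rheb at 1.32 (1.19 to 1.46) and Rras at 0.772 (0.688 to 0.866). Differences between the families were not tested.

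**Figure D5:**
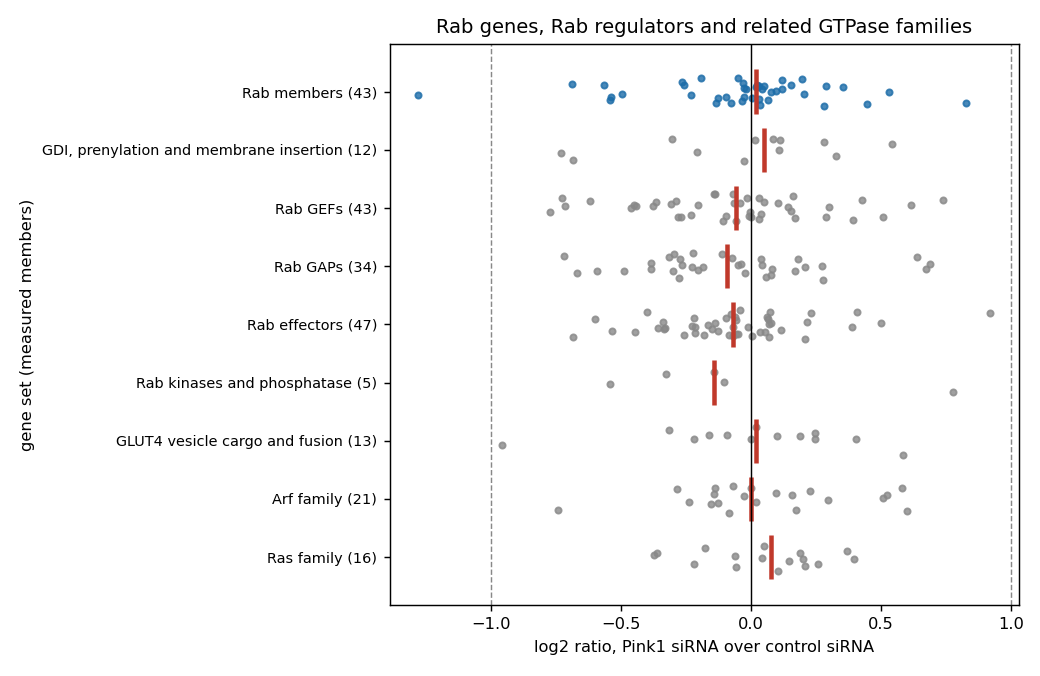
Log2 ratio of Pink1 siRNA over control siRNA for measured Rab genes (blue), for the lists of Rab regulators and related genes and for the Arf and Ras families (grey); each point is a gene, red bars are medians and dashed lines mark 2-fold. All medians lie between -0.14 and 0.08, and Rab29 is the point past 2-fold.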

How the data were processed

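RNA was measured in 2 libraries, 1 per group. RNA was isolated with Trizol, per the labels' protocols. The submitters' processing notes name bcl2fastq 2.20.0.422, Bowtie2, bedtools and mm10, without their order or settings. The gene annotation, the handling of reads with several matches and the use of strand are not stated. The deposited values are raw read counts per gene symbol, whole numbers with unequal totals.

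Counts were scaled by TMM effective library sizes (edgeR 4.0.16, R 4.3.3), which gave CPM. Log2 ratios had 0.5 added to scaled counts. Rows with at least 40 summed counts were measured. Ratio intervals are exact conditional binomial (Clopper-Pearson) 95% intervals (SciPy 1.17.1). The widened interval used 20 bands of mean level. The ribosomal precursor row Rn45s held 9.83% of the Pink1 siRNA counts and 10.8% of the control siRNA counts and was kept. Levels were also ranked per kb of the longest GENCODE M21 transcript, which gave exon overlaps and shared sequence too. Calls were tested on simulated counts that had counting error alone and no spread between libraries. That simulation cannot show how the calls hold in these data, where differences exceeded counting error. RefSeq matched 58 of the 59 Rab symbols and Rab1 by synonym, and 48 had a promoter entry.

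The members, compartments, lists and rules were chosen with earlier results of these data known. All measured Rab genes were named. From each regulator list, preset genes and those past 1.5-fold were named, and from each GTPase family the 2 genes with the largest log2 ratio in size. Each Rab was put in 1 compartment by its best-known role. Alternatives were DESeq2 1.42.0 size factors, total-count and upper-quartile scaling, other count filters, 5 added before the log, Rn45s left out and other intervals. A further gene family is not reported here.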

Additional observations from a re-analysis of the deposited data

How the results depend on the processing

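The median log2 ratio of the Rab genes lay between -0.03 and 0.02 under all 8 alternatives, and 0 Rab genes were higher past 2-fold under all 7 run for that count. The count of lower members past 2-fold, 1, was 0 with at least 200 summed counts or the widened interval, and 2 with no filter, which adds Rab15. The 3 members past 1.5-fold became 5 under total-count scaling, which adds Rab36 and Rab33b, and 0 with the widened interval. Leaving Rn45s out of the totals gave Rab shares of 0.337% in the Pink1 siRNA library and 0.350% in the control siRNA library. Rab7 and Rab7b together had a ratio of 1.06, against 1.03 (0.973 to 1.09) under total-count scaling. With at least 200 summed counts, exchange factors past 1.5-fold numbered 3 rather than 5 and GLUT4 vesicle genes 1 rather than 2, which was also 1 under total-count scaling. Under 2 other scalings, 81 single gene ratios of the Rab genes kept their side of the counting interval, and 5 did not, which were Rab6a under both scalings and Rab7, Rab14 and Rab18 under total-count scaling. Leaving out Rab genes whose exons overlap another gene by at least 100 bases, chosen after seeing the data, left 28 measured members rather than 43. Of these 28, 3 were past 1.5-fold, a larger share than 3 of 43 and nearer to the 12.1% of all measured rows. No paired analysis was possible because each group has 1 library. Without replicates the spread between cultures is unknown.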
